A study of Mus musculus with 10 samples.

Results

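Within the Atrx-deleted neural stem cells of this study, 2 expression states were compared: 3 libraries that resemble the line mA16d#4 and 3 libraries of the mA19d lines. They are 6 of the 10 RNA sequencing libraries of the series. The mA16d#4-like libraries are the line mA16d#4 in proliferation medium, the same line in differentiation medium, and the library labelled mA19d#7 in differentiation medium. The mA19d libraries are mA19d#4 and mA19d#7 in proliferation medium and mA19d#4 in differentiation medium. All of these cells, and those of both control lines (Control NSC#1 and Control NSC#2, 4 libraries), are mouse neural stem cells that lack p53 and were transduced with the mutant enzyme IDH1(R132H). The Atrx-deleted lines carry in addition a deletion of Atrx. Proliferation medium held EGF and bFGF at 20 ng/ml. Differentiation medium was neural basal medium with B27 and without growth factors, applied for 8 days. Each line was sampled once per medium. The labels do not say how the lines were derived, whether each is a single clone, or whether the control lines share a founder with the deleted ones.

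ATRX is a chromatin remodeller that works with the chaperone DAXX to place the histone variant H3.3 in heterochromatin and at repeats, and it is mutated in gliomas that also carry mutant IDH1 and lack p53. Neural stem cells in culture keep transcription factors of the region of the neural tube they came from, among them homeobox genes, and respond to loss of growth factors by moving toward glial or neuronal fates. Lines grown from few cells can differ stably from each other in such genes. All 6 libraries compared here are Atrx-deleted, so a difference between them is a difference among lines that share the deletion.

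The library labelled mA19d#7 in differentiation medium goes against its label, and it was placed with mA16d#4 because its expression values over all genes resemble that line. The states were thus chosen by measured expression. Values under that grouping are therefore given as descriptions without a p, and the tests that single genes are reported with use groups taken from the labels. Genes that set 1 line apart from both others in proliferation medium, by a log2 of at least 3 on the scale log2(TPM + 1), were chosen without that library. Its resemblance to mA16d#4 over all genes had already placed it, however. Where it lies on the chosen genes is thus a description and no separate support. There were 81 such genes for mA16d#4 (51 high, which is 0.326% of the 15660 genes tested, and 30 low, 0.192%), 8 for mA19d#4 and 1 for mA19d#7. In differentiation medium the mA16d#4 library lay on the side of mA16d#4 for 74 of the 81 genes, and the mA19d#4 library for 2. The library labelled mA19d#7 lay on the side of mA16d#4 for 80 of the 81, and on the side of mA19d#7 for 0 of the 1 gene that sets that line apart. On a scale on which mA19d#4 in differentiation medium is 0 and mA16d#4 in that medium is 1, its median place over 77 usable genes was 1.02, with quartiles of 0.907 and 1.23.

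Resemblance over all genes is what placed the doubted library, so its correlations with the other libraries describe the grouping and do not support it. Spearman's rho across genes, which are not independent replicates, was 0.957 between the library labelled mA19d#7 in differentiation medium and mA16d#4 in proliferation medium. It was 0.938 with mA16d#4 in differentiation medium, 0.926 with mA19d#7 in proliferation medium and 0.915 with mA19d#4 in differentiation medium. The resemblance did not hold in every pair, since mA16d#4 in differentiation medium had a higher rho with mA19d#4 in the same medium (0.953, with 2156 genes at least 2-fold apart) than with the doubted library (0.938, with 2690 genes). The mA19d lines in proliferation medium had a rho of 0.976 with each other, and only 12 genes lay a log2 of 3 or more apart, against 125 and 107 genes between mA16d#4 and each of them. The cause of the conflict was not tested.

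**Figure D1:**
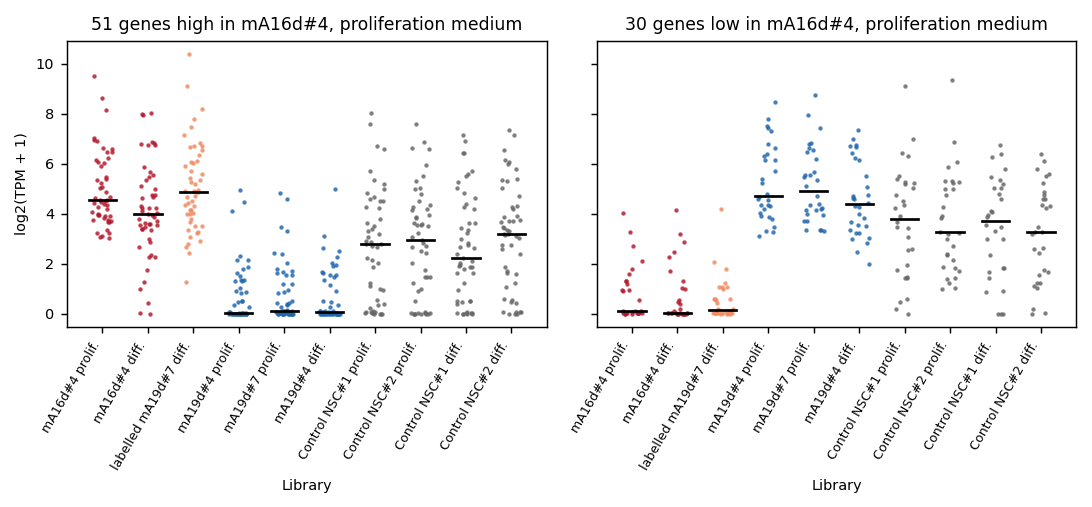
Levels, as log2(TPM + 1), of the 51 genes high (left) and the 30 genes low (right) in mA16d#4 against both mA19d lines in proliferation medium, with 1 point per gene, 1 column per library and a bar at the median. The library labelled mA19d#7 in differentiation medium lies with both mA16d#4 libraries, while the control libraries spread over the whole range.

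Between the 3 mA16d#4-like and the 3 mA19d libraries, 875 of the 15660 tested genes (5.59%) did not overlap and differed at least 2-fold after adjustment for medium. Of these 472 were higher (3.01%) and 403 lower (2.57%) in the mA16d#4-like libraries. Since the measured values placed 1 library, these counts describe the groups and support nothing. Without the doubted library the count was 916 (5.85%), 467 higher (2.98%) and 449 lower (2.87%), with 755 genes in both sets. With that library kept among the mA19d lines, as labelled, 328 genes (2.09%) met the same limits, 178 of them shared. These groupings differ in the number of libraries per group, and no overlap is easier to meet with fewer libraries. Their counts are thus not a like comparison. Just inside the limit of a log2 of 1 lay Zc3hav1 (1.002) and Morc3 (1.003), and just outside it Cnst (0.999) and Hoga1 (-0.998).

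Several of the leading genes were at the lowest values of the table in 1 state and well expressed in the other. Levels below are in TPM, given for the mA16d#4-like libraries in the order mA16d#4 in proliferation medium, mA16d#4 in differentiation medium and the library labelled mA19d#7, and for the mA19d libraries in the order mA19d#4 and mA19d#7 in proliferation medium and mA19d#4 in differentiation medium. Differences are log2 differences adjusted for medium on the log2(TPM + 1) scale, which understates those of genes with low levels. Ndn encodes necdin, a growth suppressor of neurons made from the paternal copy of an imprinted region. It was at 129.4, 109.5 and 81.7 TPM in the mA16d#4-like libraries, against 0.0069, 0.00554 and 0.00715 TPM in the mA19d libraries, and between 22.1 and 44.9 TPM in the control libraries. Its difference was 6.79, with no overlap. Aard had 119.8, 117.5 and 177.7 TPM in the mA16d#4-like libraries, against 0.00554, 0.273 and 0.0499 TPM in the mA19d libraries (difference 6.93). Control libraries had 51.3 to 85.3 TPM of Aard, nearer to the mA16d#4-like state. Cadm3, a cell adhesion molecule of neural tissue, had 64.3, 25.9 and 220.6 TPM in the mA16d#4-like libraries, against 0.202, 0.0904 and 0.0864 TPM in the mA19d libraries (5.99). The control libraries had 0.0127 and 0.0216 TPM in proliferation medium, as low as the mA19d libraries, and 5.21 and 5.74 TPM in differentiation medium, between the states.

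In the opposite direction stood Tmem35, Flot2 and Churc1. Tmem35, a transmembrane chaperone of nicotinic acetylcholine receptors, was at 0.0125, 0.0106 and 0.0071 TPM in the mA16d#4-like libraries, against 181.3, 244.6 and 102.3 TPM in the mA19d libraries, and at 68.4 to 126.6 TPM in the control libraries. Flot2, a scaffold protein of membrane rafts, was at 0.0896, 0.405 and 0.0528 TPM in the mA16d#4-like libraries, against 160.0, 111.4 and 105.1 TPM in the mA19d libraries. The control libraries held only 2.71 to 8.75 TPM of Flot2, between the states. Churc1, a zinc-binding protein studied for its part in FGF signalling in chick embryos, was at 0.0198, 0.00692 and 0.0054 TPM in the mA16d#4-like libraries, against 71.0, 71.4 and 84.9 TPM in the mA19d libraries. The differences were -7.19, -6.70 and -6.28, and no library of 1 state overlapped the other.

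The promoters of 4 of these genes are shown because each gene is near the lowest values in 1 state and expressed in the other, and CG dinucleotides, the sites of DNA methylation in mammals, are in capitals. The sequences are the 250 bases before the gene start in RefSeq (build GRCm38.p6), 5′ to 3′ on the strand of the gene. They are Ndn on chr7:62348027-62348276 (plus strand, 5 CG), Cadm3 on chr1:173367696-173367945 (minus strand, 11 CG), Tmem35 on chrX:134294975-134295224 (plus strand, 4 CG) and Flot2 on chr11:78037681-78037930 (plus strand, 13 CG).
Ndn: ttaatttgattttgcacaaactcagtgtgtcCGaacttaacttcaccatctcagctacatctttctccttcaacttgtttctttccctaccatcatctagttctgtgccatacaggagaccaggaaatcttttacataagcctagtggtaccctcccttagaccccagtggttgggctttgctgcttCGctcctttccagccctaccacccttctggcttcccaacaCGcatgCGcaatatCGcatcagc
Cadm3: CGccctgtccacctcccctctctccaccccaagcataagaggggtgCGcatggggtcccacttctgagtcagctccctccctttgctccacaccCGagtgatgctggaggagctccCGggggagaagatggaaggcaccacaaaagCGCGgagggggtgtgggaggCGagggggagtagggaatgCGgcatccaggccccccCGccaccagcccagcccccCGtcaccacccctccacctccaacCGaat
Tmem35: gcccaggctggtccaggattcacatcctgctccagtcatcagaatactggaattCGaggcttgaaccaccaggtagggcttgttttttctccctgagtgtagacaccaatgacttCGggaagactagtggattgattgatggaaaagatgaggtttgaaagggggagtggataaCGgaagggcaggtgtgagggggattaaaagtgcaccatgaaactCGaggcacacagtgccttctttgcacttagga
Flot2: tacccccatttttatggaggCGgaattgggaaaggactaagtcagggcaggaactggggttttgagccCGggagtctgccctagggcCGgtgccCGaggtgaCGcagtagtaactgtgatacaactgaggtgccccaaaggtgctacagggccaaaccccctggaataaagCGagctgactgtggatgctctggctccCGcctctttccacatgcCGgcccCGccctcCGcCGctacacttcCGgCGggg
Over all tested genes with a RefSeq promoter, 12264 of 15660, the motif CG occurred at least once in the same 250 bases in 98.5%, with a median of 15 (CG reads the same on both strands). Only 30 of the 44 genes that switch between the states as these do had a promoter entry (68.2%), under the 80% needed, so a comparison of their CG content is void. Methylation was not measured.

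**Figure D2:**
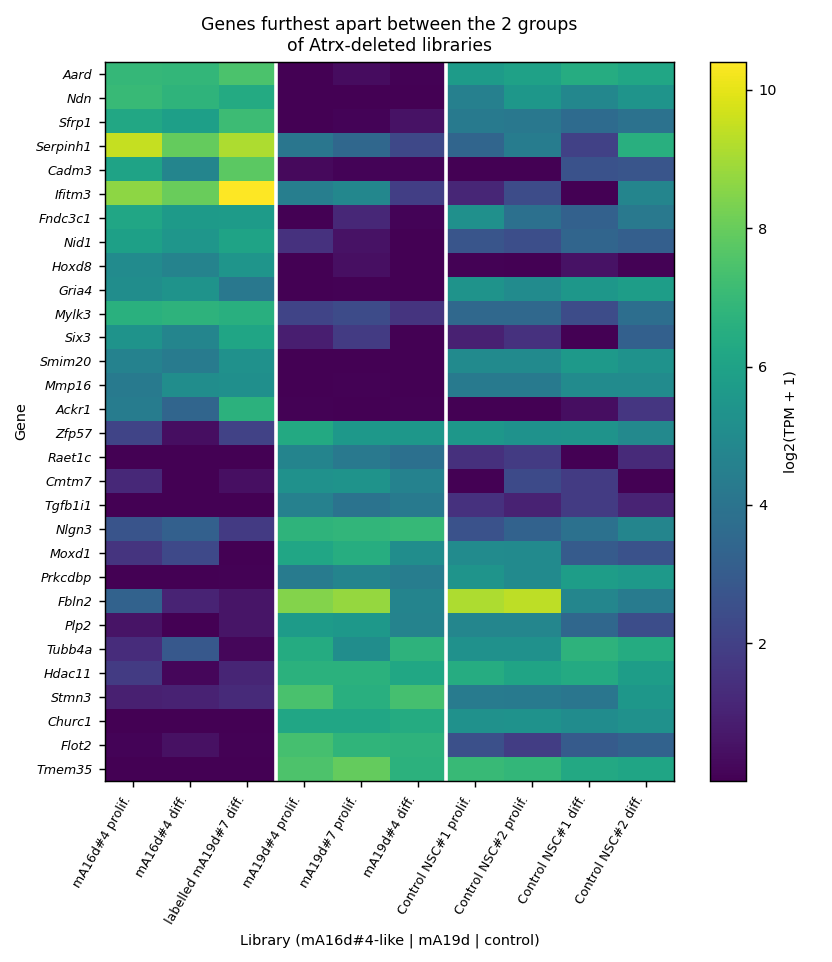
Levels, as log2(TPM + 1) by colour, of the 15 genes with the largest differences in each direction (rows) in the mA16d#4-like, mA19d and control libraries (columns, separated by white lines). Genes such as Ndn and Smim20 are at the lowest values in the mA19d libraries and those such as Tmem35 and Churc1 in the mA16d#4-like libraries, and the controls match neither state throughout.

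Sfrp1, a secreted inhibitor of Wnt signalling, had 74.1, 58.0 and 139.8 TPM in the mA16d#4-like libraries, against 0.00391, 0.0784 and 0.443 TPM in the mA19d libraries. Serpinh1, the chaperone of collagen folding, had 729.6, 249.0 and 552.6 TPM in the mA16d#4-like libraries, against 16.2, 10 and 3.85 TPM in the mA19d libraries. Neither gene overlapped, and the differences were 6.08 and 6.0. Nid1 (5.33), which links laminin and collagen in basement membranes, and Mmp16 (4.68), a metalloproteinase anchored in the membrane, were higher as well, while Fbln2 (-4.61), a fibulin of the matrix, was lower. Fbln2 also depended on the medium, with 8.67, 1.05 and 0.518 TPM in the mA16d#4-like libraries, against 353.1, 430.2 and 25 TPM in the mA19d libraries. Hdac11 (-5.22), a histone deacetylase, lies next to Fbln2 on chromosome 6 (91156665 to 91174692 and 91212455 to 91272540, GRCm38), and had 2.49, 0.133 and 1.10 TPM in the mA16d#4-like libraries, against 99.7, 98.3 and 73.4 TPM in the mA19d libraries.

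Gria4, a subunit of AMPA-type glutamate receptors, had 33.0, 40.3 and 17.0 TPM in the mA16d#4-like libraries, against 0.0223, 0.0534 and 0.00562 TPM in the mA19d libraries. Its difference was 4.90, and the control libraries, at 31.6 to 55.0 TPM, lay with the mA16d#4-like state. Nlgn3, a postsynaptic adhesion protein, had 5.51, 8.27 and 2.44 TPM in the mA16d#4-like libraries, against 109.4, 113.5 and 125.4 TPM in the mA19d libraries (-4.30). Here the control libraries, at 5.12 to 25.8 TPM, lay nearer to the mA16d#4-like state. Ifitm3 (5.63), an antiviral membrane protein induced by interferon, Mylk3 (4.71), a myosin light chain kinase known from heart, and Smim20 (4.70), a small protein of mitochondrial membranes, were higher, as was Fndc3c1 (5.56). Ackr1 (4.65), an atypical chemokine receptor, was higher too, but its gene overlaps that of Cadm3 on chromosome 1 on the same strand, so reads of these genes may be shared. Stmn3 (-6.15), a stathmin that destabilises microtubules, Tubb4a (-4.83), a brain beta-tubulin, Plp2 (-4.70), Prkcdbp (-4.45), a caveolar protein, and Moxd1 (-4.33) were lower. So were Tgfb1i1 (-4.26), a focal adhesion adaptor, Cmtm7 (-4.22), Raet1c (-4.12), a ligand of the NKG2D receptor with close copies, and Zfp57 (-4.05), a zinc finger protein that keeps methylation at imprinted regions.

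A test of mA16d#4 against the mA19d lines by label answers which of these differences exceed the spread between libraries. With all 6 Atrx-deleted libraries as labelled and medium as covariate, 0 of 15660 genes passed an adjusted p of 0.05 in limma (0.0%), and 752 had an unadjusted p below 0.05. The smallest p belonged to Ccl2, S100a1, Fam19a4, Lhpp and Dcx, each with a limma adjusted p of 0.793. S100a1, a calcium-binding protein of glia and muscle, had 12.9 and 14.6 TPM in mA16d#4, against 125.1, 97.5, 139.4 and 63.2 TPM in the libraries labelled mA19d, the last of these being the doubted library. These groups did not overlap. Dcx, which binds microtubules in migrating neurons, had 33.7 and 53 TPM in mA16d#4, against 9.08, 7.17, 19.5 and 16.7 TPM in the libraries labelled mA19d, again with no overlap.

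Without the doubted library the same limma fit called 158 genes (1.01%), 83 higher (0.53%) and 75 lower (0.479%) in mA16d#4, and 2094 had an unadjusted p below 0.05. That library was left out because its expression went against its label, so this count depends on the outcome and is a description, and no p of this fit is given for a single gene. With the labels intact no gene was called. All 158 genes differed at least 2-fold and in the same direction in both media. The fit used the libraries of both media, so this agreement follows largely from how the genes were chosen.

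The comparison in proliferation medium alone holds no library in doubt. Its p-values measure the spread between these libraries, and they do not say how far other lines would vary. With 1 library of mA16d#4, assumed to vary like the other groups, 2 of the mA19d lines and 2 of the control lines to estimate the spread, limma called 42 genes (0.268%), 24 higher (0.153%) and 18 lower (0.115%). At an unadjusted p below 0.05 there were 2237. Aard (6.74, SE 0.307, limma adjusted p = 0.017), Ndn (7.02, SE 0.484, limma adjusted p = 0.0317), Sfrp1 (6.17) and Cadm3 (5.83) were among those higher. Tmem35 (-7.71, SE 0.227, limma adjusted p = 0.0109), Flot2 (-6.95), Churc1 (-6.15), Stmn3 (-6.06) and Fbln2 (-5.34) were among those lower. Leaving out any 1 of the 2 mA19d libraries or the 2 control libraries ended all of these calls. In differentiation medium, whose libraries the fit did not use, 41 of the 42 genes differed in the same direction between mA16d#4 and mA19d#4. Signs matched between the media for 58% of all tested genes, but most of those were not far apart. Of genes higher by a log2 of at least 3 in proliferation medium 94.1% kept their direction, and of those lower by as much 100%. The 41 thus add no support to the calls.

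The differences carried over between the media most for the genes that were furthest apart. In proliferation medium, 538 genes were higher in mA16d#4 than in both mA19d lines by a log2 of at least 1 (3.44% of those tested) and 512 were lower (3.27%). Of the 538, 419 (77.9%) were also higher in mA16d#4 than in mA19d#4 in differentiation medium, and of the 512, 395 (77.1%) were also lower. With the library labelled mA19d#7 in the place of mA16d#4, the counts were 468 (87%) and 400 (78.1%). That library was placed with mA16d#4 by its expression over all genes, so its counts are a description and no separate support. Of the 51 genes higher by a log2 of at least 3, 48 kept their direction in the mA16d#4 library and 51 in the library labelled mA19d#7, and all 30 genes lower by as much did so in both. The comparisons in the 2 media share lines and no libraries.

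**Figure D3:**
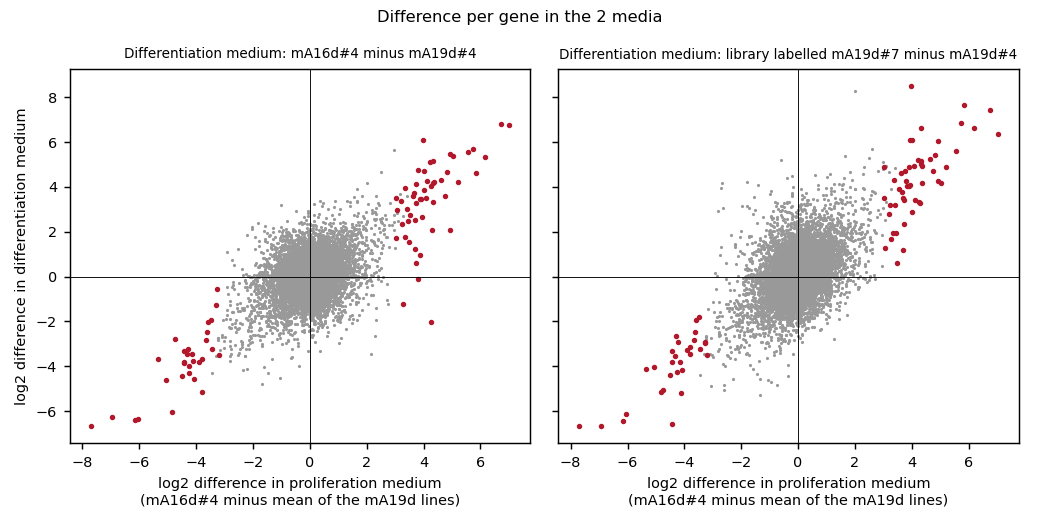
Log2 difference per tested gene between mA16d#4 and the mean of the mA19d lines in proliferation medium (horizontal) and, in differentiation medium (vertical), of mA16d#4 (left) or the library labelled mA19d#7 (right) minus mA19d#4. Red points are the 51 and 30 genes at least a log2 of 3 apart in proliferation medium, and of these 48 and 30 keep their sign on the left and 51 and 30 on the right. The library on the right was placed with mA16d#4 by its expression over all genes.

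Some genes were on in 1 state and off in the other, here at least 5 TPM in all 3 libraries of 1 state and below 1 TPM in all 3 of the other, limits set after the data were seen. There were 44 (0.281% of those tested), 25 on in the mA16d#4-like libraries (0.16%) and 19 on in the mA19d libraries (0.121%). Without the doubted library there were 28 and 23. The control libraries, which were not used to choose these genes, did not side with 1 state. All 4 control libraries were at 5 TPM or more for 10 of the 25 genes and 8 of the 19, and all 4 below 1 TPM for 5 and 0 of them, with 10 and 11 between or mixed. The 5 genes that were off in every mA19d and control library and on in every mA16d#4-like library were Pax3, Hoxd8, Zfhx4, Ly6e and Fgf13. Fgf13, an intracellular FGF family member, had 8.34, 9.36 and 5.91 TPM in the mA16d#4-like libraries, against 0.0177, 0.0133 and 0.00709 TPM in the mA19d libraries and at most 0.0186 TPM in the control libraries. Zfhx4, a zinc finger homeobox factor, had 21.6, 15.5 and 8.78 TPM in the mA16d#4-like libraries, against 0.282, 0.0555 and 0.00523 TPM in the mA19d libraries.

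Genes on in the mA16d#4-like libraries and in all controls, and off in the mA19d libraries, included Ndn, Aard, Gria4, Smim20, Mmp16, Sfrp1 and Fzd10. Vstm2b was at 15.1, 13.5 and 6.45 TPM in the mA16d#4-like libraries, against 0.00391 TPM, the lowest value of the table, in all 3 mA19d libraries. Those on in the mA19d libraries and all controls, and off in the mA16d#4-like libraries, included Tmem35, Churc1, Prkcdbp, Paqr7, Elovl2 and Cln3. Elovl2, an elongase of long polyunsaturated fatty acids, had 0.0494, 0.0547 and 0.0052 TPM in the mA16d#4-like libraries, against 17.0, 6.19 and 19.9 TPM in the mA19d libraries and 18.0 to 52.5 TPM in the controls. Cln3, a lysosomal membrane protein, had 0.0225, 0.00391 and 0.0212 TPM in the mA16d#4-like libraries, against 7.75, 9.18 and 10.4 TPM in the mA19d libraries. Cxcl1, a chemokine, had at most 0.921 TPM in the mA16d#4-like libraries, against 8.50 to 50.5 TPM in the mA19d libraries and at most 4.10 TPM in the controls. Over all 875 genes, the control mean lay nearer to the mA16d#4-like state for 226 of the 472 that were higher (47.9%) and 167 of the 403 that were lower (41.4%).

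Gene lists, chosen with earlier results of these data known, describe the groups of genes in which the states differed. Shares of members that did not overlap and differed at least 2-fold stand against 5.59% of all tested genes, and they carry no test. Of the Hox genes, transcription factors of the body axis that are normally silent in forebrain, 19 of 35 in the table were tested. Of these 8 were higher in the mA16d#4-like libraries and 0 lower (42.1%), with a median difference of 1.12 against -0.02 over all tested genes. The median was 1.34 between mA16d#4 and the mA19d lines in proliferation medium and 0.17 between mA16d#4 and mA19d#4 in differentiation medium. Hoxd8 had 31.9, 24.2 and 41.8 TPM in the mA16d#4-like libraries, against 0.0129, 0.341 and 0.00391 TPM in the mA19d libraries and at most 0.442 TPM in the controls. Hoxd4 had 28.7, 6.32 and 15.1 TPM in the mA16d#4-like libraries, against 1.06, 2.19 and 0.0843 TPM in the mA19d libraries. Hoxd3 (3.03) and Hoxd9 (2.83) behaved alike, and Hoxd3 and Hoxd4 overlap in the annotation, so these genes of 1 cluster are not independent. Hoxa13 had 4.45, 0.806 and 3.10 TPM in the mA16d#4-like libraries and at most 0.00552 TPM in every mA19d and control library. Hoxa7 and Hoxa10, present in both states, had 17.9 to 48.2 and 23.7 to 39.6 TPM in the mA16d#4-like libraries, against 7.47 to 12.5 and 10.3 to 21.4 TPM in the mA19d libraries. By label in proliferation medium, 1 of the 19 passed the limma test, Hoxd8 (4.82, limma adjusted p = 0.0386), and with the 6 libraries as labelled 0 did.

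Other regional transcription factors of the neural tube stood on the same side. Of 45 tested, 13 were higher in the mA16d#4-like libraries and 1 lower (31.1%), with a median difference of 0.44, and 13 were higher and 0 lower without the doubted library (median 0.24). The median was 0.53 in proliferation medium and 0.01 in differentiation medium for mA16d#4 against the mA19d lines, so the list as a whole showed almost no shift in differentiation medium. Zic1, a zinc finger factor of the dorsal neural tube, had 99.9, 46.0 and 100.5 TPM in the mA16d#4-like libraries, against 3.49, 2.14 and 2.89 TPM in the mA19d libraries, and 51.5 to 95.6 TPM in the controls. All 3 mA16d#4-like libraries lay outside the control range, 2 above it and 1 below it, and the mA19d libraries lay far under it. Six3, a factor of the forebrain and eye, showed another order, with 39.6, 26.0 and 68.3 TPM in the mA16d#4-like libraries, against 0.858, 2.47 and 0.0234 TPM in the mA19d libraries, and at most 8.07 TPM in the controls. Pax3, a factor of the dorsal neural tube and neural crest, had 8.55, 5.78 and 7.51 TPM in the mA16d#4-like libraries, against 0.366, 0.0798 and 0.00551 TPM in the mA19d libraries and at most 0.019 TPM in the controls. Irx2 had 10.1 to 15.6 TPM in the mA16d#4-like libraries and was at 0.00391 TPM in all 3 mA19d libraries. Msx1 (12.5, 16.4 and 25.3 TPM in the mA16d#4-like libraries, against at most 0.00693 TPM in the mA19d libraries) overlaps the antisense gene Msx1os, which had similar values, and whether strand was used in counting is not given. Also higher were Dlx6, Irx1, En2, Gbx2, Foxa2, Eomes and Sp9, by 1.06 to 1.96. Gsx1, a factor of the ventral forebrain, was lower, at 7.86, 4.60 and 2.25 TPM in the mA16d#4-like libraries, against 9.91, 12.4 and 15 TPM in the mA19d libraries. By label in proliferation medium 2 of the 45 passed the limma test, Zic1 (4.75, limma adjusted p = 0.0263) and Irx2 (3.89, limma adjusted p = 0.0489), and with the 6 libraries as labelled 0 did. Pax6 did not overlap, but the groups nearly met, at 32.3 to 44.0 TPM in the mA16d#4-like libraries, against 24.6 to 32 TPM in the mA19d libraries.

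In the Wnt pathway 4 of 30 tested genes were higher in the mA16d#4-like libraries and 0 lower (13.3%), and the median difference was -0.04. The 4 act at the cell surface or outside it. Fzd9, a Wnt receptor, had 369.9, 225.0 and 245.9 TPM in the mA16d#4-like libraries, against 54.2, 72.2 and 42.5 TPM in the mA19d libraries, and 103.4 to 186.2 TPM in the controls, which lay between the states. Fzd10, another receptor, had 19.8, 17.8 and 29.5 TPM in the mA16d#4-like libraries, against at most 0.0109 TPM in the mA19d libraries. Sfrp1 is described above, and the ligand Wnt5b had 12.7 to 18.4 TPM in the mA16d#4-like libraries, against 2.93 to 8.79 TPM in the mA19d libraries. Sfrp1 (limma adjusted p = 0.0194) and Fzd10 (limma adjusted p = 0.0461) passed the test by label in proliferation medium, and Fzd9 had a limma adjusted p of 0.0643. In the BMP and TGF-beta list 3 of 23 genes were higher and 0 lower (Tgfb1, Id4 and Nog), and in the Notch list 1 of 19 (Hey2).

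Astrocyte genes were higher in the mA16d#4-like libraries for 6 of 21 tested and lower for 0 (28.6%), with a median difference of 0.44, and 0.60 without the doubted library. In bulk RNA, more cells of a type and more RNA per cell cannot be told apart. Gfap, the intermediate filament of astrocytes, had 50, 79.5 and 1411.5 TPM in the mA16d#4-like libraries, against 6.87, 19.3 and 3.49 TPM in the mA19d libraries and 1.57 to 7.96 TPM in the controls. The groups did not overlap, but the doubted library stood far above the other 5. The difference was 4.12 with it and 2.93 without it. Aqp4, a water channel, had 20.3, 19.2 and 86.0 TPM in the mA16d#4-like libraries, against 6.75, 6.96 and 3.93 TPM in the mA19d libraries. Gja1, a gap junction protein, had 37.3, 88.5 and 311.7 TPM in the mA16d#4-like libraries, against 13.1, 3.20 and 9.58 TPM in the mA19d libraries, while the controls held 35 to 47.1 TPM in proliferation medium and 385.6 to 560.7 TPM in differentiation medium. Sparcl1 (1.60), Id4 (1.14) and Nfib (1.11) completed the 6. Without the doubted library there were again 6, with S100b in the place of Nfib. By contrast Aldh1l1, at 18.6, 17.3 and 4.82 TPM in the mA16d#4-like libraries, against 30.1, 27.1 and 16.5 TPM in the mA19d libraries, and the glutamate transporter Slc1a3 overlapped. No astrocyte gene passed the limma test by label, with the 6 libraries or in proliferation medium.

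Neuronal genes were mixed. Of 19 pan-neuronal genes 1 was higher and 3 lower (21.1%), with a median difference of -0.11, and without the doubted library 2 were higher and 2 lower, with a median of 0.003. Elavl4, an RNA-binding protein of neurons, had 3.77, 7.11 and 1.31 TPM in the mA16d#4-like libraries, against 20.8, 21.9 and 28.5 TPM in the mA19d libraries and 26.3 to 29.7 TPM in the controls. Tubb3, neuronal beta-tubulin, had 171.7, 246.6 and 50.1 TPM in the mA16d#4-like libraries, against 294.3, 371.7 and 362.5 TPM in the mA19d libraries, and its difference of -1.32 was -0.78 without the doubted library. Rbfox3, the neuronal nuclear antigen, was at most 0.138 TPM in the mA16d#4-like libraries, against 0.825 to 2.17 TPM in the mA19d libraries. Ina, a neurofilament relative, was higher, at 2.38, 9.12 and 0.477 TPM in the mA16d#4-like libraries, against at most 0.139 TPM in the mA19d libraries. Dcx was higher without overlap once the doubted library was left out (1.70). Among 47 synapse and ion channel genes 4 were higher (Gria4, Gabra4, Kcnn2 and Cacna1d) and 4 lower (Nlgn3, Chrna7, Gria3 and Gria1), together 17.0%. The AMPA receptor genes were thus split, Gria1 being at most 0.498 TPM in the mA16d#4-like libraries, against 1.67 to 2.84 TPM in the mA19d libraries. Of 17 oligodendrocyte lineage genes 2 were lower (Opalin and Mog, both of myelin, 11.8%), and Mog was low throughout, at most 3.24 TPM in the 6 libraries. The list had a median difference of -0.48, and -0.35 without the doubted library, and 3 of the 17 had a positive difference. For mA16d#4 against the mA19d lines the median was -0.05 in proliferation and -0.44 in differentiation medium. Olig2 overlapped, at 1067.5, 847.5 and 455.1 TPM in the mA16d#4-like libraries, against 955.4, 1046.2 and 1411.5 TPM in the mA19d libraries.

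Clustered protocadherins, adhesion molecules whose isoforms give single neurons distinct surfaces, were lower for 15 of 58 tested and higher for 0 (25.9%). Without the doubted library 8 were lower. Of the 58 genes, 9 had a positive difference. Of the 15, 13 belong to the alpha cluster, whose members share their 3′ exons and mostly had similar levels within a library, so they are closer to 1 measurement than to 13. Pcdha4, the member with the lowest limma adjusted p in proliferation medium (0.0462), had 16.6, 35.9 and 12.1 TPM in the mA16d#4-like libraries, against 60, 61.8 and 53.2 TPM in the mA19d libraries and 37.1 to 53.3 TPM in the controls. In the beta cluster, Pcdhb6 had 2.89, 13.1 and 2.60 TPM in the mA16d#4-like libraries, against 18.4, 24.8 and 23 TPM in the mA19d libraries.

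Imprinted genes differed in both directions, with 4 of 33 tested higher and 1 lower (15.2%, median difference 0.00). Ndn was off in the mA19d libraries alone. Nnat, a neuronal membrane proteolipid, had 2267.7, 2836.7 and 1324.3 TPM in the mA16d#4-like libraries, against 607.6, 489.8 and 1171.4 TPM in the mA19d libraries, and 2471.2 to 3019.3 TPM in the controls. Both Mcts2 and Nespas were higher, and the noncoding RNA Peg13 was lower, at 14.8, 36.7 and 8.04 TPM in the mA16d#4-like libraries, against 66.9, 70.4 and 80.2 TPM in the mA19d libraries. Controls held 55.5 to 80.2 TPM of Peg13, overlapping the mA19d libraries.

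**Figure D4:**
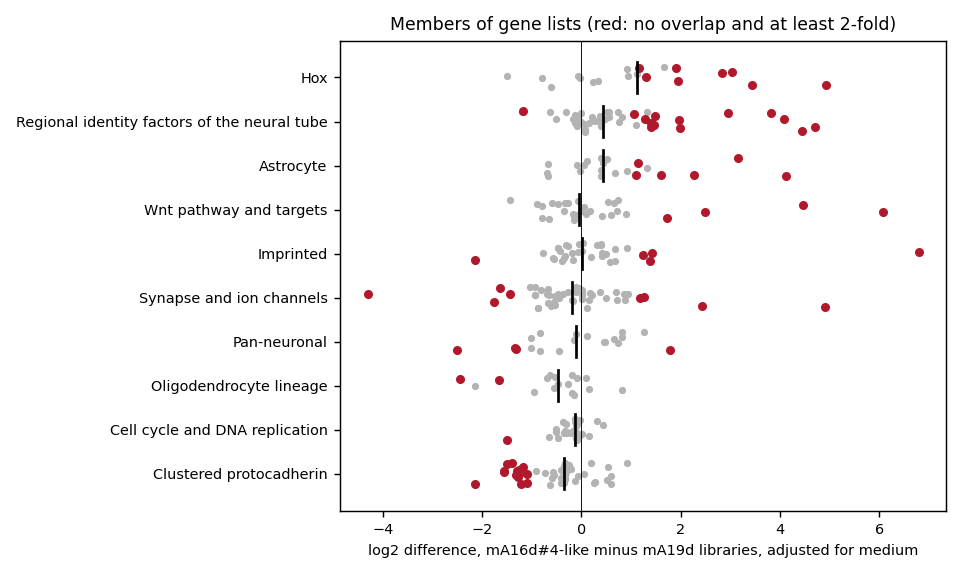
Log2 difference, adjusted for medium, between the mA16d#4-like and the mA19d libraries for each tested member (points) of 10 gene lists (rows), with a bar at the list median. Members that did not overlap and differed at least 2-fold are red: 8 of 19 Hox genes lie to the right and 15 of 58 clustered protocadherins to the left.

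Of 9 genes of glutamatergic neurons 2 were higher (Neurod1 and Eomes) and 1 lower (Camk2a), which is 33.3%, and without the doubted library 1 was higher and 1 lower. None of 24 genes of H3.3 and heterochromatin machinery, 26 Polycomb genes, 26 genes of ERK feedback and growth factor receptors, 25 of hypoxia and glycolysis, 21 of cholesterol synthesis or 17 of MHC class I and antigen presentation did so. Of 25 interferon response genes 2 were higher (Ifitm3 and Isg15, 8.0%), and of 28 glutathione and xenobiotic genes 2 (the neighbours Gstt1 and Gstt3, 7.14%). Of 48 adhesion and guidance genes 4 were higher (Cadm3, Epha5, Epha7 and Nrp1, 8.33%). These shares lie near the 5.59% of all tested genes. In the list of extracellular matrix and mesenchymal genes 2 of 24 were higher and 2 lower (16.7%). Twist1, a factor of mesenchyme and neural crest, had 16, 10.7 and 30.2 TPM in the mA16d#4-like libraries, against at most 0.0321 TPM in the mA19d libraries (limma adjusted p = 0.0948 in proliferation medium), while Col6a2 and Thy1 were lower. The CDK inhibitor Cdkn2b had 7.96, 9.96 and 53.2 TPM in the mA16d#4-like libraries, against 0.774, 0.889 and 1.26 TPM in the mA19d libraries (limma adjusted p = 0.279 in proliferation medium).

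Defining markers of the labelled cell type were present in both states. Sox2 had 364.3 to 704.8 TPM in the mA16d#4-like libraries, against 443.6 to 562.2 TPM in the mA19d libraries, and Nes, the filament of neural stem cells, had 318.9 to 753.3 against 456.0 to 651.7 TPM. Both overlapped. Markers of other cell types were not all absent. Cx3cr1 of microglia was at most 0.0351 TPM in all 6 libraries, Cdh5 of endothelium at most 0.0117 TPM and Rgs5 of mural cells at most 0.0728 TPM. Csf1r reached 1.16 TPM in mA19d#7 in proliferation medium, Pecam1 of endothelium was at 1.36 to 2.64 TPM in all 6 libraries, and the collagen gene Col1a1 was at 1.48 to 4.41 TPM. Foxj1, a factor of ciliated ependymal cells, had 28.6 to 157.5 TPM in the mA16d#4-like libraries, against 17.8 to 36.3 TPM in the mA19d libraries, with overlap. Their part in the results was not tested. Of the microglia and macrophage list 4 of 13 genes in the table were tested and P2ry12 was higher, with summed levels of 14.1 to 18.3 TPM in the mA16d#4-like libraries, against 7.03 to 9.72 TPM in the mA19d libraries. The endothelial and mural list summed to 22.4 to 94.5 TPM in the mA16d#4-like libraries, against 59.9 to 85.9 TPM in the mA19d libraries, with 0 of 7 tested genes separating the states.

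The deleted gene was below every control library in both states. Atrx had 71.6, 54.4 and 54.0 TPM in the mA16d#4-like libraries, against 42.8, 74.0 and 47.2 TPM in the mA19d libraries, and 126.7 to 162.6 TPM in the controls. Its difference between the states was 0.27, and the states overlapped. Daxx, the partner of ATRX, had 48.3, 42.4 and 32.9 TPM in the mA16d#4-like libraries, against 84.5, 64.8 and 68.3 TPM in the mA19d libraries, without overlap and with a difference of -0.73, under the 2-fold limit. Idh1, whose value may hold reads of the mouse gene and of the transduced mutant if its sequence aligns there, had 114.8, 150.9 and 72.2 TPM in the mA16d#4-like libraries, against 241.7, 225.0 and 234.9 TPM in the mA19d libraries and 225.7 to 271.9 TPM in the controls. The mean was 113 ± 39.4 TPM in the mA16d#4-like libraries and 234 ± 8.38 TPM in the mA19d libraries (SD, n = 3 each), and the difference of -1.09 was -0.85 without the doubted library. Trp53 and Xist overlapped between the states.

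Position in the genome was not used by the grouping, but expression values over all genes were. Where the doubted library lies on a chromosome is thus a description and no support for the grouping. Of the 15660 tested genes 15037 (96%) had a position by symbol in GENCODE M21 (GRCm38). Chromosome 4 stood apart: over its 931 tested genes the median difference between the states was 0.45, against -0.02 over all tested genes with a position. In proliferation medium, 81.7% of its genes were higher in mA16d#4 than in the mean of the mA19d lines, and in differentiation medium 82.9% were higher in mA16d#4, and 82.6% in the library labelled mA19d#7, than in mA19d#4. Relative to the control mean of the same medium, the median of chromosome 4 was 0.18 and 0.17 in mA16d#4 in proliferation and differentiation medium and 0.28 in the library labelled mA19d#7, against -0.23 and -0.18 in mA19d#4 and mA19d#7 in proliferation medium and -0.26 in mA19d#4 in differentiation medium. The mA16d#4-like libraries were thus above and the mA19d libraries below the controls, while Control NSC#2 minus Control NSC#1 had a median of 0.03 and 0.00 on this chromosome in the 2 media. The values were similar for the 723 genes with a mean of at least 5 TPM, at 0.19, 0.20 and 0.29 in the mA16d#4-like libraries, against -0.26, -0.17 and -0.27 in the mA19d libraries.

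The shift was seen in windows spread over the chromosome. Of 721 overlapping windows of 40 consecutive tested genes, 72 had medians of at least 0.2 in the same direction in both media, and the 12 windows with the largest shift in both media all lay on chromosome 4, between 3549041 and 148954889. The window from 62499008 to 86612055 had medians of 0.52 in proliferation medium and 0.56 in differentiation medium between mA16d#4 and the mA19d lines, and 0.65 for the library labelled mA19d#7, with mA19d#7 minus mA19d#4 at 0.02. Of the 931 genes, 73 were higher and 11 lower past the limits of the 875 genes (9.02%, against 5.55% of all genes with a position). Chromosome 18, where the clustered protocadherins lie, had a larger share (9.35%), with 10 higher and 29 lower, and a median difference of 0.01. Mmp16 and Cdkn2b, higher in the mA16d#4-like libraries, are on chromosome 4, as are Paqr7 and Elavl4, which were lower.

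Smaller shifts were seen elsewhere. The median difference between the states was -0.32 on chromosome 17, -0.19 on chromosome 7, -0.19 on chromosome 9 and -0.23 on the X chromosome. On the X chromosome the mA19d lines differed from each other, and mA19d#7 was higher than mA19d#4 in proliferation medium for 80.3% of 517 genes, with a median of 0.41. Relative to controls the X median was -0.36 in mA16d#4 in proliferation medium, -0.23 in mA16d#4 in differentiation medium and -0.36 in the library labelled mA19d#7. In the mA19d libraries it was -0.33 for mA19d#4 and 0.09 for mA19d#7 in proliferation medium, and -0.12 for mA19d#4 in differentiation medium. The library labelled mA19d#7 in differentiation medium and mA19d#7 in proliferation medium thus had different X medians. They are of different media, however, and the X medians of mA16d#4 and mA19d#4 also differed between the media. On chromosome 19 the library labelled mA19d#7 in differentiation medium lay nearer to mA16d#4 in proliferation medium (0.28 against 0.36) than to mA16d#4 in differentiation medium (-0.02).

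**Figure D5:**
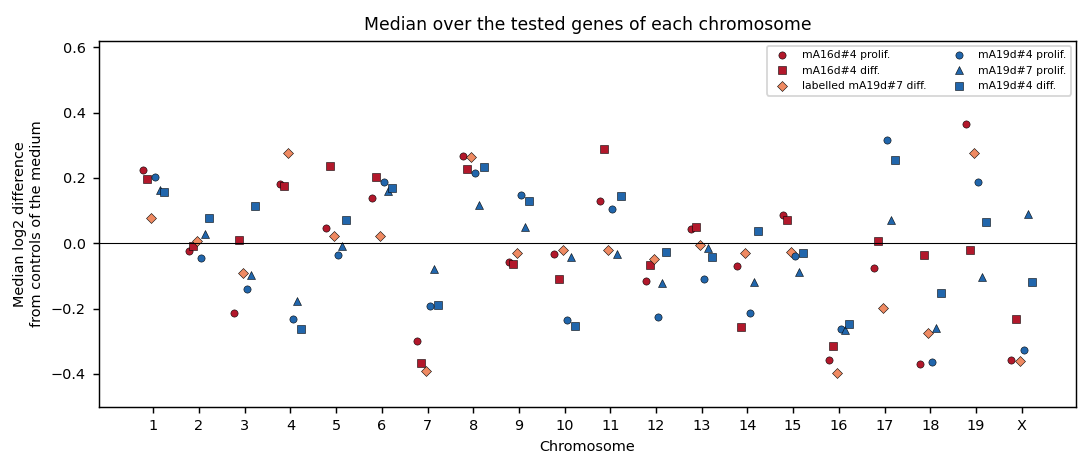
Median, over the tested genes of each chromosome, of the log2 difference from the mean of the control libraries of the same medium, for each of the 6 Atrx-deleted libraries (red and orange: mA16d#4-like, blue: mA19d). On chromosome 4 the 3 mA16d#4-like libraries lie at 0.17 to 0.28 and the 3 mA19d libraries at -0.26 to -0.18, and on the X chromosome mA19d#7 in proliferation medium lies above the others.

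The lines also differed in how they compared between the media, with 1 library per line and medium and therefore no test. Over 30 tested genes of cell cycle and DNA replication, the median of differentiation minus proliferation medium was -1.28 in mA16d#4 and -0.07 in mA19d#4, against 0.024 and 0.025 over all tested genes. Mki67, a protein of cycling cells, had 189.6 TPM in proliferation and 55.6 TPM in differentiation medium in mA16d#4, while mA19d#4 had 169.1 and 163.1 TPM. The library labelled mA19d#7 had 90.5 TPM of Mki67, with a cell cycle median 0.58 below mA16d#4 in proliferation medium and 0.62 above it in differentiation medium. In this list 1 gene separated the states (3.33%, against 5.59% of all tested genes). It was Ccnb2, with 12.1, 3.20 and 6.63 TPM in the mA16d#4-like libraries, against 46.1, 26.9 and 15.2 TPM in the mA19d libraries. For astrocyte genes the median of differentiation minus proliferation medium was 0.66 in mA16d#4 and -0.11 in mA19d#4.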

How the data were processed

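The table held 21101 genes in 10 libraries, in log2 units. It is the authors' deposited table of log2 TPM (transcript abundance scaled to a common total), and its values run down to a floor of -8, or 0.00391 TPM. All libraries hold the same sorted values, so the deposited values were quantile-normalised before deposit, and a shift shared by all genes of a library cannot be seen. Depth is unknown. Reads were aligned with STAR to mm10, per the submitters' processing notes. Not given in the sources used here: the tool for TPM, the annotation, versions and the use of strand. Y-linked genes were not analysed here, and a few genes are not reported here.

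Values were transformed back to TPM, and log2(TPM + 1) was analysed for the 15660 genes that reached 1 TPM in 2 or more libraries. Tests by label used limma 3.58.1 with a mean-variance trend in R 4.3.3, with Benjamini-Hochberg adjustment over all tested genes. Medium was a covariate in the fit of the Atrx-deleted libraries of both media. The fit in proliferation medium alone used group means and no covariate. The state grouping was fitted by least squares on state and medium in Python 3.11.15 and has no test. Both fits were tested on simulated data. The design assumed linear TPM, and the planned fits were kept after transformation. The alternatives were other pseudocounts, filters, scalings, limma settings, all libraries in the fit and each library left out. The fit on the log2 values as deposited, the chromosome medians of genes averaging 5 TPM or more and the on and off counts without the doubted library were chosen after seeing the data.

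Members and lists were chosen with earlier results of these data known. Named genes were the 15 largest differences in each direction without overlap whose higher state averaged 5 TPM or more, the 5 largest per direction among calls of each limma fit (or the 5 smallest p), up to 3 members per direction of each list, the genes that set 1 line furthest apart, and fixed markers. Symbols of clone type were passed over. Other genes in the text are members of the lists or of the genes on in 1 state, and were chosen after their values were seen.

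Libraries with the same line label come from the same cell line in both media, per the labels. Pearson's r across genes of their deviations from the mean of the Atrx-deleted libraries of each medium was 0.159 for mA16d#4, 0.404 for mA19d#4 and -0.194 for mA19d#7. For mA16d#4 in proliferation medium it was 0.378 with the library labelled mA19d#7 in differentiation medium.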

Additional observations from a re-analysis of the deposited data

How the results depend on the processing

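With the 6 Atrx-deleted libraries as labelled, limma called 0 genes under each alternative except 1. Leaving out libraries gave 0 to 158 calls, and the 158 came without the library labelled mA19d#7 in differentiation medium. With cell line as a random replicate block the count was 0, with 975 genes at an unadjusted p below 0.05; the block could not be fitted without that library.

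In proliferation medium the 42 calls became 78 with a pseudocount of 0.1 TPM, 221 with no filter (25 of them shared), 278 with a filter of 5 TPM, 154 with robust empirical Bayes, 122 with the log2 values as deposited (chosen after seeing the data) and 0 with all 10 libraries in the fit. Leaving out 1 of 4 libraries gave 0 to 0 calls, with 1 residual degree of freedom, and leaving out mA16d#4 gives no contrast. The cause was not tested.

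The 875 genes that separated the states became 380 with a pseudocount of 5 TPM, 328 with the last library kept by its label, and 916 to 1314 with 1 library left out, the highest without mA16d#4 in differentiation medium. No overlap is easier to meet with 1 library fewer, so the higher counts are not a like comparison. The place of the doubted library was 0.949 to 1.055 over the gaps and pseudocounts run. Of 101 named genes, 3 changed sign without that library (Nes, Trp53 and Xist) and 5 with its label kept (these, Olig2 and Sox2); none of these separated the states, and 0 of the 85 that did changed sign. With the label kept, 76 moved by more than the scatter of the libraries around the fit of state and medium. That scatter is not one between replicates, since each line was sampled once per medium. The number of lines, 1 against 2, limits every comparison here.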

Other observations

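In differentiation medium the library labelled mA19d#7 also differed from mA16d#4 in the genes below, which apart from Gfap did not separate the states. These are values of 1 library each, with no test. Gfap was at 1411.5 TPM in the library labelled mA19d#7, against 79.5 TPM in mA16d#4. The secreted lipocalin Lcn2 was at 57.9 against 2.22 TPM, Cd14, a receptor for bacterial lipopolysaccharide, at 137.6 against 4.98 TPM, and the ligand Bmp6 at 29.8 against 0.461 TPM. Junb, an immediate early transcription factor, was at 61.7 against 0.868 TPM, and mA16d#4 in proliferation medium had 28.6 TPM.

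Other genes were lower in the same library. Gpr17, a receptor of oligodendrocyte precursors, was at 15.6 TPM in the library labelled mA19d#7, against 410.7 TPM in mA16d#4 in differentiation medium and 37.0 TPM in mA16d#4 in proliferation medium. Lhfpl3 was at 23 against 245.6 TPM, with 20.4 TPM in mA16d#4 in proliferation medium. Dcc, a netrin receptor, was at 2.79 against 36.2 TPM. For Gpr17 and Lhfpl3 the library labelled as differentiated thus lay near the level of mA16d#4 in proliferation medium.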
